A study of Mus musculus with 25 samples.

Results

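The genes described here are 40 cell-cycle genes, taken as a list of names from a table of 30749 genes measured in macrophages of 2 mouse models of glioblastoma (GBM), a malignant brain tumour. All 40 passed the filter on low counts, as did 17216 genes of the table in all. They are treated as a group of 16 that act at entry into S phase and in DNA replication (G1/S genes) and a group of 24 that act in G2 and mitosis (G2/M genes).

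RNA was sequenced from microglia, the resident macrophages of the brain, and from monocyte-derived macrophages (MDM), which enter from the blood, sorted from mouse tumours. The tumours were labelled type 1 or type 2, and had either arisen spontaneously or been transplanted, which the labels call the model. The labels used here give no strain, allele, transgene, age, treatment or sort gate for any group. Microglia were represented by 3 libraries from each of the 4 classes of tumour, and MDM by 2 libraries from type 1 spontaneous, 4 from type 1 transplanted, 1 from type 2 spontaneous and 2 from type 2 transplanted tumours. The 4 samples of microglia from normal brain were not analysed here, so no level below is set against tissue without a tumour. Whether libraries of the same group stem from different animals is not given, so a p-value here reflects only how these libraries scatter, and that scatter may be technical.

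A dividing cell transcribes these genes in waves. E2F factors, released from the retinoblastoma protein when D-type and E-type cyclins activate their kinases, drive the genes that license and copy DNA, and the same genes are shut down in resting cells. Later, once the repressing DREAM complex has left them, the MMB complex and the factor FOXM1 switch on the genes for the mitotic kinases, the spindle and the kinetochore. Both microglia and monocyte-derived cells are known to divide in brain tumours, although most macrophages of a tissue are at rest at any time.

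Levels are normalised read counts. They are not divided by gene length, so values are compared between libraries for 1 gene and not between genes. Values within a group are listed in the order of the library numbers, which are 1, 2 and 4 for type 1 transplanted microglia, 3 for the type 2 spontaneous MDM library and 1 and 3 for type 2 transplanted MDM. Differences are of log2(normalised count + 1), with the standard error of the limma-trend fit. All adjusted p-values are Benjamini-Hochberg values over the 17216 genes.

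The libraries held 26530069 to 50365607 reads and 16297 to 21435 detected genes. The sorted cell types carried the markers of their labels: 6 of 6 MDM markers (among them Ccr2 and Itga4) were higher in MDM and 6 of 6 microglia markers (among them Tmem119 and P2ry12) were lower, with medians of 5.73 and -4.20. Transcripts of other cells were present as well. The summed level of 13 T and NK cell markers reached 210219 to 236757 in type 1 transplanted MDM (4 libraries) and 292279 in type 2 transplanted MDM 1. The other MDM libraries had sums of 11281 and 28520 (type 1 spontaneous), 38274 (type 2 spontaneous) and 34843 (type 2 transplanted MDM 3), and microglia 109 to 5579. No marker of that list was at 0 in any MDM library. Results that rest on these 5 libraries are given with and without them where a fit without them exists, and in bulk RNA fewer cells of a type and less RNA per cell cannot be told apart.

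The promoters of the G1/S and G2/M genes held different short motifs. RefSeq (GRCm38.p6) gave windows of 300 bases, 250 before and 50 after the transcription start, for 33 of the 40 genes. Ccne2, Mcm4, Ccna2, Aurkb, Kif20a, Tpx2 and Foxm1 had none. Both strands were searched for 5 forms of the E2F site (TTTGGCGC, TTTCGCGC, TTTCCCGC, TTTGCCGC and TTCCCGCC, of which the last overlaps TTTCCCGC), for the CHR element TTTGAA, which the DREAM and MMB complexes bind, and for CCAAT, which the factor NF-Y binds. An E2F form was in 7 of 14 G1/S windows (50%) and in 1 of 19 G2/M windows (5.26%), that of Cdk1, against 3.89% of all 32851 windows in the table. The CHR letters were in 2 of 14 G1/S windows (14.3%) and 14 of 19 G2/M windows (73.7%), against 17.9% of all windows. CCAAT was in 9 of 14 (64.3%) and 17 of 19 (89.5%), against 37.4%. These are matches of letters, which do not show that a factor binds there.

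**Figure D1:**
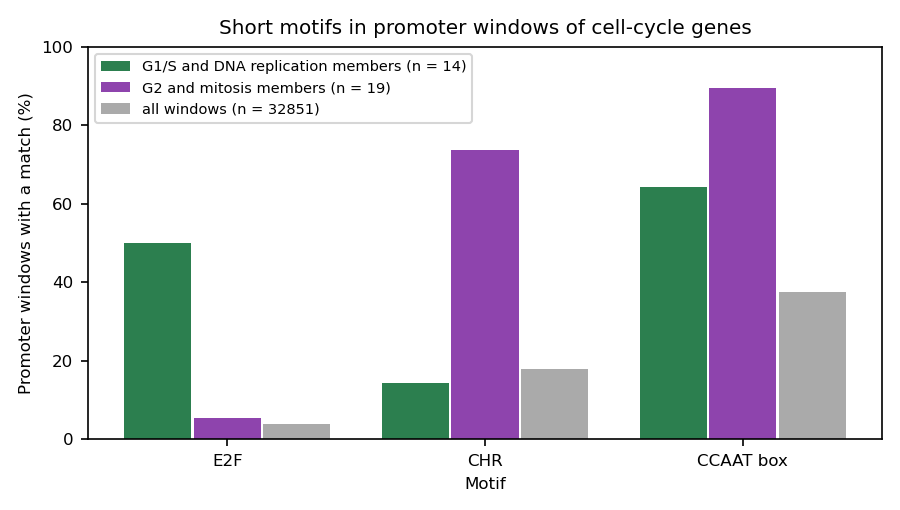
Share of promoter windows (percent) with at least 1 match to an E2F form, the CHR element or the CCAAT box, for 14 G1/S genes (green), 19 G2/M genes (purple) and all 32851 windows (grey). The E2F bar is highest for the G1/S genes at 50% and the CHR bar for the G2/M genes at 73.7%.

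The 250 bases before the start of 4 of these genes show the contrast between E2F forms and CHR letters. They were chosen because Mcm6 and Rrm1 carry E2F forms and Cdc20 and Top2a carry CHR letters. All 4 carry CCAAT letters, which are marked only in Cdc20 and Top2a and left in lower case in Mcm6 and Rrm1. Each is written 5′ to 3′ in the direction of the gene, from RefSeq GRCm38.p6. In Mcm6 (chr1:128359706-128359955, minus strand) and Rrm1 (chr7:102441445-102441694, plus strand) capitals mark the E2F forms. In Cdc20 (chr4:118437344-118437593, minus strand) and Top2a (chr11:99024190-99024439, minus strand) capitals mark CHR and CCAAT letters on either strand.
Mcm6: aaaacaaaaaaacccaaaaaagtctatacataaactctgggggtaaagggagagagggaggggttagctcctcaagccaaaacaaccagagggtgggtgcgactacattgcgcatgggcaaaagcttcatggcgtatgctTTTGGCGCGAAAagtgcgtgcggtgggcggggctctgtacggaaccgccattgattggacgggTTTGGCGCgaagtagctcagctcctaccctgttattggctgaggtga
Rrm1: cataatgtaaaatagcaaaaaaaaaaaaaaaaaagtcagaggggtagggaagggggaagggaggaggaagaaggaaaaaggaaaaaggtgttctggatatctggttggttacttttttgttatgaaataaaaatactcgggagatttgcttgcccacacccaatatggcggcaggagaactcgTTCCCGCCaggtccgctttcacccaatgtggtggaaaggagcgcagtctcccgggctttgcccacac
Cdc20: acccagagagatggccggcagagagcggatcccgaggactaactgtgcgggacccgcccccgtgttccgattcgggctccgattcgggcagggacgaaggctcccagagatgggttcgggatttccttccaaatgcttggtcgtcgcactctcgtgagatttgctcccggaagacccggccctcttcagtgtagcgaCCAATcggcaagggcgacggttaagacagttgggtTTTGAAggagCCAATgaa
Top2a: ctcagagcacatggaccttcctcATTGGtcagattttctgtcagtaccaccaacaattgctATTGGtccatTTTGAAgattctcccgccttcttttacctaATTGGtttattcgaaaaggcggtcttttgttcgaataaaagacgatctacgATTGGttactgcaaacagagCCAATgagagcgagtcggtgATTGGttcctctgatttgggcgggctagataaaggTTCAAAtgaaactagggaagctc
In Mcm6, which encodes a subunit of the replicative helicase, E2F forms begin 110, 106 and 47 bases before the start, the first pair overlapping. Rrm1, which encodes the large subunit of ribonucleotide reductase, has 1 such form, 67 bases before the start. Cdc20, the activator of the anaphase-promoting complex, has a CHR match 18 bases and CCAAT matches 53 and 8 bases before the start. Top2a, the topoisomerase that untangles chromosomes, has CHR matches 179 and 23 bases and 6 CCAAT matches 227 to 58 bases before the start. The window of Ccne1, the E-type cyclin whose levels are described below, held none of the 3 motifs, as did those of Tyms, Tk1, Birc5 and Nusap1.

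The main pattern of the 40 genes across the 21 libraries was a large difference between libraries of the same group, which the G2/M genes shared. Averaged over the 24 genes on the log2 scale, the G2/M level of type 1 spontaneous microglia was 10.72 in library 1 but 6.75 and 7.25 in libraries 2 and 3, a 15.7-fold range. It was 8.02, 8.22 and 10.14 in type 2 spontaneous microglia, 8.73, 7.01 and 10.45 in type 2 transplanted microglia, and 8.10, 7.91 and 8.92 in type 1 transplanted microglia. Each of the 3 groups with a wide range thus held 1 library in which the genes were high, and all 24 genes were highest in that library (type 1 spontaneous microglia 1, type 2 spontaneous microglia 3 and type 2 transplanted microglia 3).

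MDM libraries differed in the same way. The G2/M level was 8.75 and 5.87 in type 1 spontaneous MDM and 7.59 and 9.13 in type 2 transplanted MDM, with 22 of 24 genes higher in library 1 of the former and 24 of 24 higher in library 3 of the latter. The 4 type 1 transplanted MDM libraries lay close together at 8.97, 9.06, 9.07 and 8.42, and the lone type 2 spontaneous MDM library was at 8.84. The highest MDM library was therefore below the high library of each of the 3 wide microglia groups.

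**Figure D2:**
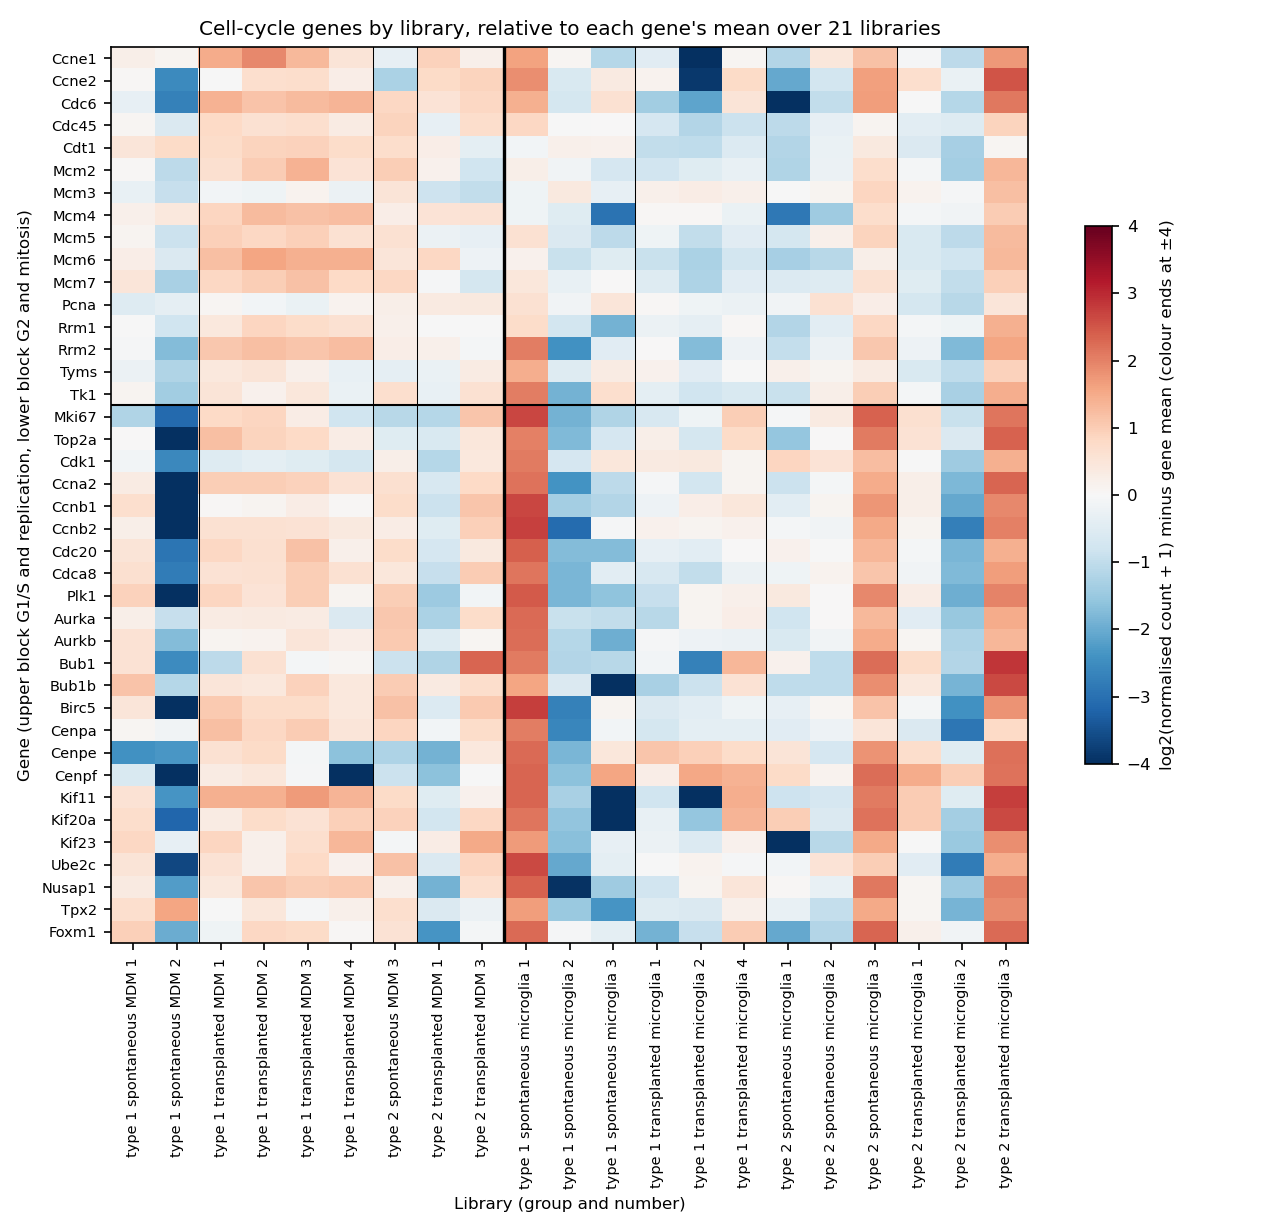
Each cell gives log2(normalised count + 1) of 1 gene (vertical axis) in 1 library (horizontal axis, 9 MDM and then 12 microglia libraries) minus the mean of that gene over 21 libraries, red above and blue below, with colours ending at ±4. Type 1 spontaneous microglia 1, type 2 spontaneous microglia 3 and type 2 transplanted microglia 3 are red for nearly every G2/M gene, and type 1 spontaneous MDM 2 is blue for most of them.

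The G1/S genes spread less. Their mean levels were 10.31, 8.91 and 9.06 in type 1 spontaneous, 9.10, 8.03 and 9.27 in type 1 transplanted, 8.25, 9.18 and 10.24 in type 2 spontaneous and 9.23, 8.58 and 10.73 in type 2 transplanted microglia. In MDM they were 9.50 and 8.54, 10.16, 10.30, 10.30 and 10.02, 9.81, and 9.62 and 9.52 in the same order of classes. The standard deviation between libraries of a group had a median of 0.74 over the 16 G1/S genes and 1.62 over the 24 G2/M genes on the log2 scale, and of 0.69 over all 17216 genes. In microglia these medians were 0.87, 1.63 and 0.65, and in MDM 0.45, 1.21 and 0.62. The 3 high microglia libraries were high for both groups of genes. Type 1 spontaneous microglia 1 was the highest of all 21 libraries for 19 of the 40 genes and type 2 transplanted microglia 3 for 13, and type 1 spontaneous MDM 2 was the lowest for 13. In type 2 transplanted MDM the 2 groups of genes differed: library 3 was above library 1 for the G2/M genes (9.13 against 7.59) but not for the G1/S genes (9.52 against 9.62).

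Libraries of the 2 cell types that carry the same number were high together for the G2/M genes in some classes. In type 1 spontaneous tumours both the MDM and the microglia library numbered 1 were above those numbered 2 (8.75 and 10.72 against 5.87 and 6.75 for the G2/M genes), and in type 2 transplanted tumours those numbered 3 were above those numbered 1 (9.13 and 10.45 against 7.59 and 8.73). In type 1 transplanted tumours this order did not hold, since library 4 had the lowest MDM level (8.42) and the highest microglia level (8.92). Nor did it hold for the G1/S genes in type 2 transplanted tumours. There library 3 was above library 1 in microglia (10.73 against 9.23) but not in MDM (9.52 against 9.62). The labels do not say what the numbers share.

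**Figure D3:**
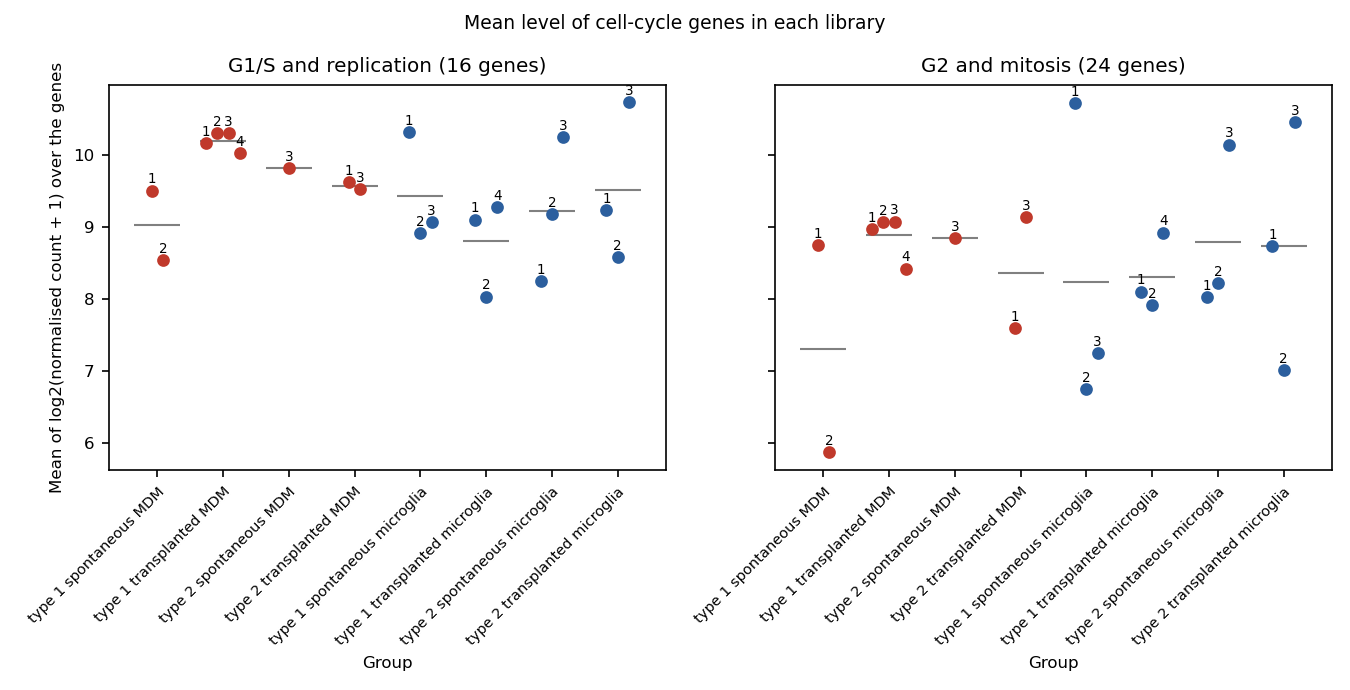
Mean of log2(normalised count + 1) over the 16 G1/S genes (left) and the 24 G2/M genes (right) in each library, with red points for MDM, blue points for microglia, the library number beside each point and a grey line at the mean of the group. The G2/M means of type 1 spontaneous microglia run from 6.75 to 10.72, and those of type 1 transplanted MDM from 8.42 to 9.07.

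Summed levels of neural, glial and MDM markers did not move with the high microglia libraries in 1 direction. The summed level of 14 neural progenitor and glial markers, which tumour cells can express, was 1899 in type 1 spontaneous microglia 1 against 2607 and 2155 in the other libraries of the group. It was 2406 in type 2 spontaneous microglia 3 against 967 and 858, and 145 in type 2 transplanted microglia 3 against 123 and 106. The MDM marker sum was 6813 against 12279 and 5478, 2801 against 2967 and 5448, and 3170 against 1808 and 4853 in the same groups. Of the neural and glial sums, Cspg4 alone gave 2001 of the 2406 in type 2 spontaneous microglia 3. It also gave 1976 of the 2607 in type 1 spontaneous microglia 2, so these sums rested largely on that gene. Within the list, Nes was highest in each high library, at 494 against 81.3 and 126, 287 against 221 and 157, and 61.0 against 51.6 and 15.2. Olig1 was so only in type 2 transplanted microglia, at 179 against 58.9 and 572, 33.4 against 135 and 34.6, and 27.7 against 6.56 and 12.9. The microglia marker sum was 684098 against 430512 and 742453, 685354 against 836670 and 806855, and 544378 against 692902 and 941023. In the MDM, the low type 1 spontaneous library 2 differed from library 1 in its microglia marker sum (73853 against 163203) and its dendritic cell sum (61437 against 21665), and the low type 2 transplanted library 1 differed from library 3 in its T and NK cell sum (292279 against 34843). The microglia marker sum was lower in the low library of both pairs, at 26981 against 159975 in type 2 transplanted MDM. The part of these cells in the levels of the cell-cycle genes was not tested.

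Cdt1 and Mcm6, which act in the licensing of replication origins, had the smallest p of the 40 genes between cell types. Over the 4 classes, MDM were compared with microglia with each class weighted equally. The comparison is between the sorted libraries, with the transcripts of other cells that they hold. The test called 4 of the 40 genes higher in MDM (Cdt1, Mcm6, Mcm4 and Cdc45) and 3 lower (Mcm3, Cenpe and Cenpf), against 23% higher and 19.8% lower among all genes tested. The share among the 40 was below that background in both directions. The median log2 difference was 0.46 over the G1/S genes, with 13 of 16 above 0, 0.02 over the G2/M genes, with 12 of 24 above 0, and 0.07 over all genes. None of the 40 had every MDM library above, or every one below, all microglia libraries, as 3.8% and 3.06% of tested genes did.

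Cdt1, which loads the helicase onto origins, was at 1177 and 1444 in type 1 spontaneous, 1411, 1573, 1612 and 1398 in type 1 transplanted, 1381 in type 2 spontaneous and 1007 and 648 in type 2 transplanted MDM. In microglia it was at 780, 981 and 953 in type 1 spontaneous, 431, 422 and 579 in type 1 transplanted, 375, 703 and 1110 in type 2 spontaneous and 567, 340 and 901 in type 2 transplanted. Its log2 difference was 0.95 ± 0.21, adjusted p = 0.0013, a 1.93-fold higher level in MDM. All MDM libraries outside the type 2 transplanted class were above all microglia libraries, 1177 or more against 1110 or less, while the type 2 transplanted groups overlapped.

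Mcm6 stood at 2693 and 1483 in type 1 spontaneous, 5067, 6609, 5991 and 5913 in type 1 transplanted, 3114 in type 2 spontaneous and 3922 and 1919 in type 2 transplanted MDM. Microglia had Mcm6 at 2519, 1195 and 1572 in type 1 spontaneous, 1207, 928 and 1334 in type 1 transplanted, 877, 1026 and 2597 in type 2 spontaneous and 1459, 1267 and 5487 in type 2 transplanted tumours. The difference was 1.05 ± 0.28, adjusted p = 0.0060, or 2.06-fold. The 4 type 1 transplanted MDM libraries held the highest MDM values, and the high type 2 transplanted microglia library 3 reached the same range. Mcm4, another subunit of that helicase, was at 1299 and 1496 in type 1 spontaneous, 2023, 2694, 2495 and 2657 in type 1 transplanted, 1342 in type 2 spontaneous and 1648 and 1651 in type 2 transplanted MDM. Microglia had Mcm4 at 983, 791 and 143 in type 1 spontaneous, 1154, 1147 and 933 in type 1 transplanted, 154, 420 and 1830 in type 2 spontaneous and 1066, 1015 and 2262 in type 2 transplanted tumours. Mcm4 differed by 1.11 ± 0.40, adjusted p = 0.030. It was low in type 1 spontaneous microglia 3 and type 2 spontaneous microglia 1, and in the high library of each type 2 microglia group it overlapped the MDM.

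Cdc45, which joins the MCM ring to form the active helicase, was at 354 and 224 in type 1 spontaneous, 582, 506, 530 and 418 in type 1 transplanted, 620 in type 2 spontaneous and 262 and 540 in type 2 transplanted MDM. Microglia had Cdc45 at 587, 328 and 334 in type 1 spontaneous, 207, 146 and 183 in type 1 transplanted, 160, 265 and 356 in type 2 spontaneous and 250, 231 and 610 in type 2 transplanted tumours. The difference of 0.63 ± 0.25, adjusted p = 0.047 was the least certain of the calls. Leaving out each of the 21 libraries in turn, it was called in 7 fits, with differences of 0.40 to 0.76 and adjusted p of 0.015 to 0.24, the highest without the type 2 spontaneous MDM library. Without that library the comparison is over the other classes only. Mcm3 went the other way from its partner subunits, at 2135 and 1402 in type 1 spontaneous, 2473, 2367, 2942 and 2231 in type 1 transplanted, 3800 in type 2 spontaneous and 1490 and 1344 in type 2 transplanted MDM. Microglia had Mcm3 at 2358, 3451 and 2091 in type 1 spontaneous, 3051, 3280 and 3031 in type 1 transplanted, 2603, 2845 and 4833 in type 2 spontaneous and 2899, 2583 and 6154 in type 2 transplanted tumours. Mcm3 differed by -0.51 ± 0.18, adjusted p = 0.029. In both transplanted classes every microglia library was above every MDM library for Mcm3, and in the spontaneous classes the groups overlapped.

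The other helicase genes had no call over the 4 classes. Mcm2 was at 1284 and 604 in type 1 spontaneous, 1937, 2521, 3322 and 1815 in type 1 transplanted, 2476 in type 2 spontaneous and 1411 and 729 in type 2 transplanted MDM. Microglia had Mcm2 at 1478, 1142 and 795 in type 1 spontaneous, 744, 903 and 1017 in type 1 transplanted, 540, 1071 and 2040 in type 2 spontaneous and 1198, 483 and 3164 in type 2 transplanted tumours. Mcm2 differed by 0.51 ± 0.32, adjusted p = 0.22. Mcm5 was at 1860 and 959 in type 1 spontaneous, 3346, 3097, 3333 and 2650 in type 1 transplanted, 2642 in type 2 spontaneous and 1456 and 1365 in type 2 transplanted MDM. Microglia had Mcm5 at 2627, 1148 and 840 in type 1 spontaneous, 1534, 865 and 1275 in type 1 transplanted, 1070, 1972 and 3187 in type 2 spontaneous and 1137, 834 and 4164 in type 2 transplanted tumours. Mcm5 differed by 0.42 ± 0.30, adjusted p = 0.28. For both genes the 4 type 1 transplanted MDM libraries were above the 3 microglia libraries of that class, while type 2 transplanted microglia 3 held the highest Mcm5 value of the 21, 4164, and a Mcm2 value, 3164, that 1 MDM library exceeded. Mcm7 had a difference of 0.50 ± 0.28, adjusted p = 0.16 and Cdc6, the loading factor that works with CDT1, one of 0.69 ± 0.67, adjusted p = 0.43.

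**Figure D4:**
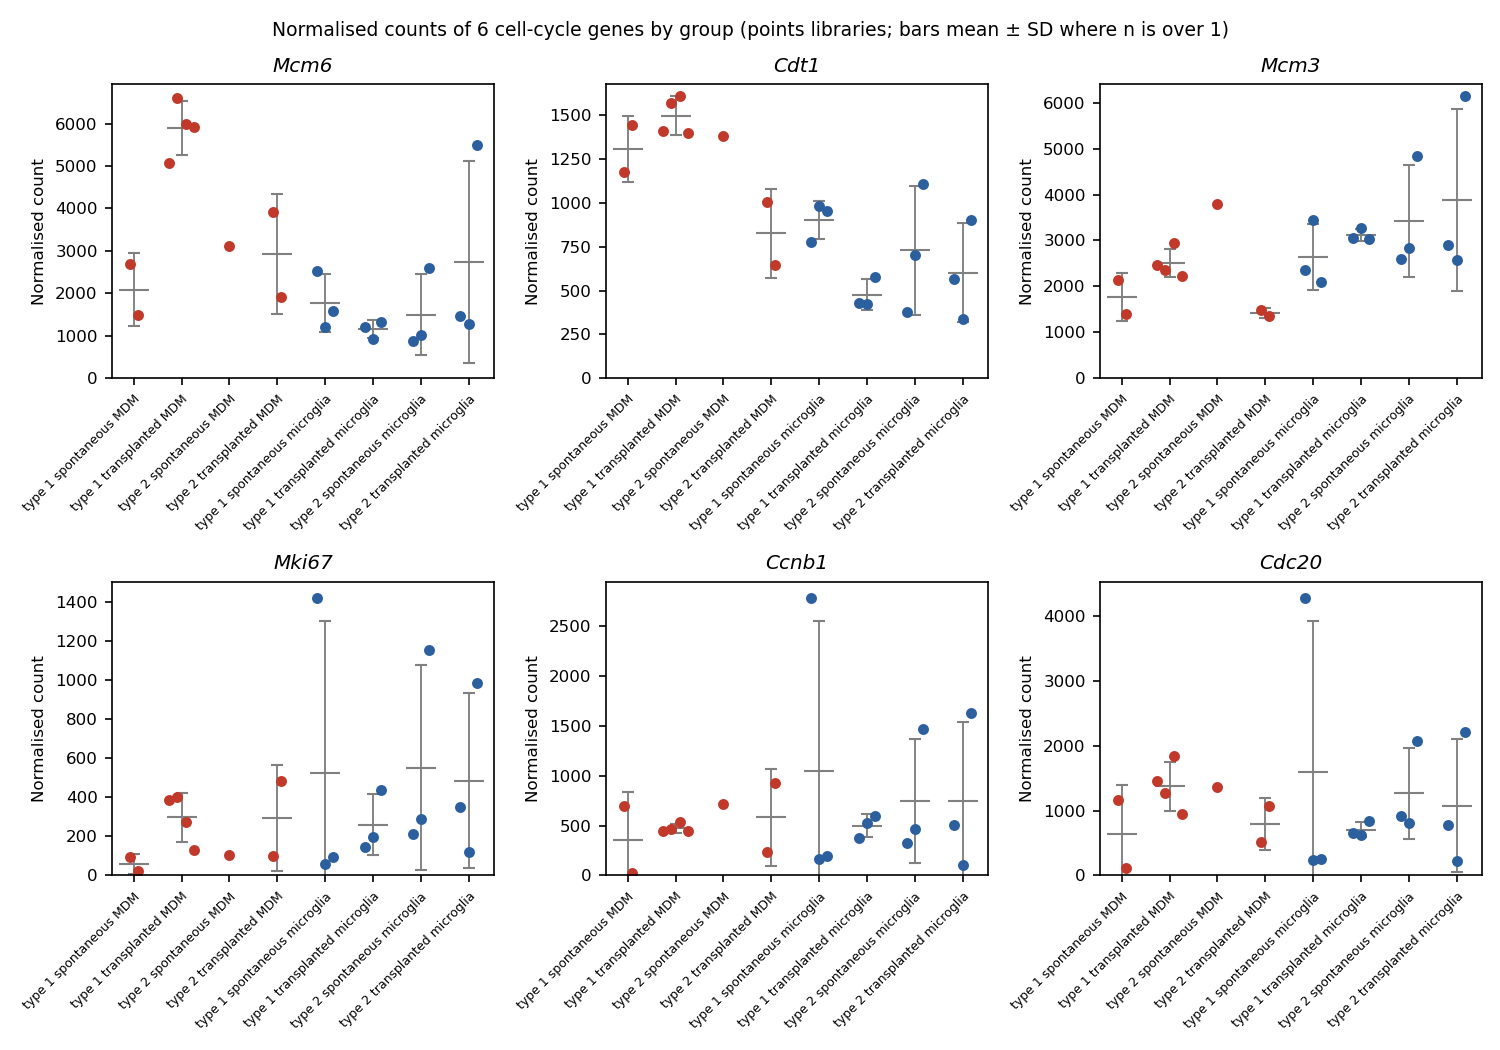
Normalised counts (linear axes from 0) of Mcm6, Cdt1, Mcm3, Mki67, Ccnb1 and Cdc20 in each library by group, red for MDM and blue for microglia, with the mean and SD of each group of more than 1 library (bars that pass below 0 end at the axis). Mcm6 and Cdt1 are high in the type 1 transplanted MDM libraries, Mcm3 is higher in transplanted microglia than in transplanted MDM, and the 3 G2/M genes are high in 1 library of each of 3 microglia groups.

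Among the genes of the E-type cyclins and of DNA synthesis, none was called over the 4 classes. Ccne1, the cyclin that starts S phase with CDK2, was at 223 and 207 in type 1 spontaneous, 532, 730, 472 and 272 in type 1 transplanted, 151 in type 2 spontaneous and 362 and 219 in type 2 transplanted MDM. Microglia had Ccne1 at 583, 203 and 85.4 in type 1 spontaneous, 138, 0 and 201 in type 1 transplanted, 84.3, 263 and 427 in type 2 spontaneous and 184, 92.2 and 632 in type 2 transplanted tumours. Ccne1 differed by 0.95 ± 0.79, adjusted p = 0.35. It had no read in type 1 transplanted microglia 2, which widened its spread. Pcna, the clamp of the DNA polymerases, was the steadiest of the 16 genes beside Mcm3, at 1453 and 1630 in type 1 spontaneous, 2176, 1910, 1723 and 2279 in type 1 transplanted, 2449 in type 2 spontaneous and 2640 and 2705 in type 2 transplanted MDM. Microglia had Pcna at 3151, 1893 and 2918 in type 1 spontaneous, 2149, 1849 and 1750 in type 1 transplanted, 1893, 3149 and 2503 in type 2 spontaneous and 1274, 962 and 2909 in type 2 transplanted tumours. Pcna differed by 0.03 ± 0.19, adjusted p = 0.91. Rrm2, the S-phase subunit of ribonucleotide reductase, was at 756 and 238 in type 1 spontaneous, 1672, 1814, 1710 and 1847 in type 1 transplanted, 944 in type 2 spontaneous and 913 and 741 in type 2 transplanted MDM. Microglia had Rrm2 at 3234, 145 and 579 in type 1 spontaneous, 798, 238 and 677 in type 1 transplanted, 405, 667 and 1680 in type 2 spontaneous and 690, 229 and 2371 in type 2 transplanted tumours. Rrm2 differed by 0.42 ± 0.52, adjusted p = 0.55. Rrm2 thus ran from 145 to 3234 within type 1 spontaneous microglia alone, a range that held all its MDM values.

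The remaining G1/S genes were highest in type 1 spontaneous microglia 1 or type 2 transplanted microglia 3, apart from Mcm7. Ccne2 ran from 1.46 in type 1 transplanted microglia 2 to 207 in type 2 transplanted microglia 3, and Cdc6 from 3.89 in type 2 spontaneous microglia 1 to 427 in type 2 transplanted microglia 3. Mcm7 ran from 592 in type 1 spontaneous MDM 2 to 3309 in type 1 transplanted MDM 3, and Rrm1 from 430 in type 1 spontaneous microglia 3 to 4294 in type 2 transplanted microglia 3. Tyms and Tk1, the thymidylate synthase and thymidine kinase genes, were both highest in type 1 spontaneous microglia 1, at 1989 and 1985, and lowest at 312 in type 1 spontaneous MDM 2 and 130 in type 1 spontaneous microglia 2. Their differences between cell types were -0.30 ± 0.28 and 0.15 ± 0.46, neither called.

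Of the 24 G2/M genes, 2 kinetochore genes passed the test between cell types and the others did not. Mki67, the marker of cells outside the resting state, was at 96.9 and 24.7 in type 1 spontaneous, 386, 403, 275 and 129 in type 1 transplanted, 104 in type 2 spontaneous and 100 and 484 in type 2 transplanted MDM. Microglia had Mki67 at 1421, 58.9 and 96.7 in type 1 spontaneous, 144, 198 and 439 in type 1 transplanted, 214, 287 and 1155 in type 2 spontaneous and 348, 121 and 986 in type 2 transplanted tumours. Mki67 differed by -1.10 ± 0.60, adjusted p = 0.15. The lowest MDM library, type 1 spontaneous 2, was at 24.7 and the highest microglia library, type 1 spontaneous 1, at 1421. Top2a was at 558 and 13.0 in type 1 spontaneous, 1263, 1030, 961 and 683 in type 1 transplanted, 390 in type 2 spontaneous and 361 and 748 in type 2 transplanted MDM. Microglia had Top2a at 2254, 160 and 343 in type 1 spontaneous, 643, 337 and 940 in type 1 transplanted, 187, 561 and 2319 in type 2 spontaneous and 817, 370 and 2839 in type 2 transplanted tumours. Top2a differed by -0.83 ± 0.67, adjusted p = 0.33. Its lowest value was in type 1 spontaneous MDM 2 and its highest in type 2 transplanted microglia 3.

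Cdk1, the kinase that starts mitosis, was at 921 and 165 in type 1 spontaneous, 691, 763, 705 and 609 in type 1 transplanted, 1174 in type 2 spontaneous and 448 and 1321 in type 2 transplanted MDM. Microglia had Cdk1 at 4177, 619 and 1354 in type 1 spontaneous, 1271, 1296 and 1065 in type 1 transplanted, 1823, 1440 and 2349 in type 2 spontaneous and 988, 369 and 2661 in type 2 transplanted tumours. Its difference of -0.94 ± 0.41, adjusted p = 0.069 missed the threshold, and its MDM values all lay within the microglia range except that of type 1 spontaneous MDM 2. Ccna2, the cyclin of S phase and G2, was at 590 and 28.6 in type 1 spontaneous, 943, 945, 908 and 712 in type 1 transplanted, 745 in type 2 spontaneous and 303 and 828 in type 2 transplanted MDM. Microglia had Ccna2 at 2149, 89.7 and 229 in type 1 spontaneous, 464, 285 and 517 in type 1 transplanted, 263, 449 and 1317 in type 2 spontaneous and 553, 136 and 2365 in type 2 transplanted tumours. Ccna2 differed by -0.01 ± 0.65, adjusted p = 0.99. Ccnb1, the cyclin partner of CDK1 in mitosis, was at 694 and 20.8 in type 1 spontaneous, 442, 464, 536 and 447 in type 1 transplanted, 715 in type 2 spontaneous and 238 and 928 in type 2 transplanted MDM. Microglia had Ccnb1 at 2780, 167 and 190 in type 1 spontaneous, 374, 524 and 596 in type 1 transplanted, 320, 464 and 1462 in type 2 spontaneous and 505, 104 and 1628 in type 2 transplanted tumours. Ccnb1 differed by -0.39 ± 0.67, adjusted p = 0.67. For both cyclins the 4 type 1 transplanted MDM libraries were close to one another, at 712 to 945 for Ccna2 and 442 to 536 for Ccnb1, while the microglia of other classes ran from 89.7 to 2365 and from 104 to 2780.

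Foxm1, the factor that drives mitotic genes, was at 363 and 46.8 in type 1 spontaneous, 166, 336, 320 and 193 in type 1 transplanted, 278 in type 2 spontaneous and 35.8 and 176 in type 2 transplanted MDM. Microglia had Foxm1 at 897, 180 and 143 in type 1 spontaneous, 50, 97.8 and 379 in type 1 transplanted, 44.1, 83.1 and 937 in type 2 spontaneous and 218, 170 and 900 in type 2 transplanted tumours. Foxm1 differed by -0.32 ± 0.63, adjusted p = 0.71. Cdc20 was at 1169 and 107 in type 1 spontaneous, 1458, 1270, 1849 and 942 in type 1 transplanted, 1359 in type 2 spontaneous and 512 and 1073 in type 2 transplanted MDM. Microglia had Cdc20 at 4283, 245 and 248 in type 1 spontaneous, 662, 619 and 841 in type 1 transplanted, 919, 811 and 2077 in type 2 spontaneous and 779, 229 and 2220 in type 2 transplanted tumours. Cdc20 differed by 0.08 ± 0.56, adjusted p = 0.92. Both were high in the same 3 microglia libraries as the other G2/M genes, at 897, 937 and 900 for Foxm1 and at 4283, 2077 and 2220 for Cdc20.

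The kinetochore genes Cenpe, a motor that moves chromosomes to the spindle equator, and Cenpf, which links the kinetochore to microtubules, were lower in MDM. Cenpe was at 24.4 and 26 in type 1 spontaneous, 207, 229, 126 and 42.8 in type 1 transplanted, 56.8 in type 2 spontaneous and 35.8 and 182 in type 2 transplanted MDM. Microglia had Cenpe at 654, 37.4 and 184 in type 1 spontaneous, 294, 263 and 224 in type 1 transplanted, 192, 84.3 and 470 in type 2 spontaneous and 219, 95.2 and 619 in type 2 transplanted tumours. Cenpe differed by -1.75 ± 0.55, adjusted p = 0.015. Cenpf was at 70.0 and 5.20 in type 1 spontaneous, 134, 148, 104 and 0 in type 1 transplanted, 59.0 in type 2 spontaneous and 33.4 and 107 in type 2 transplanted MDM. Microglia had Cenpf at 541, 33.7 and 321 in type 1 spontaneous, 130, 317 and 281 in type 1 transplanted, 184, 117 and 512 in type 2 spontaneous and 302, 213 and 488 in type 2 transplanted tumours. Cenpf differed by -2.49 ± 0.86, adjusted p = 0.026. Cenpf had no read in type 1 transplanted MDM 4. The fitted levels were 3.36-fold (Cenpe) and 5.64-fold (Cenpf) lower in MDM. The cell types overlapped in both transplanted classes for Cenpe and in both type 1 classes for Cenpf, and elsewhere MDM were below. Cenpa, the histone that marks the centromere, had a difference of 0.92 ± 0.49, adjusted p = 0.14, in the other direction and not called.

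The other mitotic genes had log2 differences between cell types of -0.52 for Bub1 to 0.90 for Kif23, none called. Each had its highest value in type 1 spontaneous microglia 1 or type 2 transplanted microglia 3. Among the kinases, Plk1 ran from 27.3 in type 1 spontaneous MDM 2 to 2480 in type 1 spontaneous microglia 1, Aurka from 180 in type 2 transplanted microglia 2 to 2485 and Aurkb from 143 in type 1 spontaneous microglia 3 to 2645, both highest in that same library. The spindle checkpoint genes Bub1 and Bub1b were highest in type 2 transplanted microglia 3, at 744 and 2038, and lowest at 14.6 in type 1 transplanted microglia 2 and 11.3 in type 1 spontaneous microglia 3.

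Birc5 and Cdca8, which encode the survivin and borealin subunits of the complex of Aurora B, ran from 29.9 and 70.2 in type 1 spontaneous MDM 2 to 4096 and 2164 in type 1 spontaneous microglia 1. Ccnb2, the other B-type cyclin gene, ran from 46.8 to 5097 and Ube2c, the ubiquitin-conjugating enzyme of the anaphase-promoting complex, from 44.2 to 3500 in the same libraries. The mitotic kinesin genes Kif11, Kif20a and Kif23 had gaps: Kif11 was at 1.46 in type 1 transplanted microglia 2, Kif20a had no read in type 1 spontaneous microglia 3 and Kif23 was at 5.19 in type 2 spontaneous microglia 1. They reached 1083, 418 and 781 in type 2 transplanted microglia 3. Nusap1 and Tpx2, which act on spindle microtubules, ran from 21.5 in type 1 spontaneous microglia 2 and 102 in type 1 spontaneous microglia 3 to 1771 in type 1 spontaneous microglia 1 and 1973 in type 2 transplanted microglia 3. Tpx2 departed from the other G2/M genes in type 1 spontaneous MDM 2, where it was at 1581 against 853 in library 1.

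The calls between cell types were lost without the libraries that held many T and NK cell transcripts. Leaving out the 4 type 1 transplanted MDM libraries and type 2 transplanted MDM 1, over the other 3 classes, limma-trend called 0 of the 40 genes, against 24.6% of all genes in that fit, and 3 of the 40 had an unadjusted p under 0.05. Voom was not run on these libraries. The differences were then 0.60 ± 0.31 for Cdt1 (adjusted p = 0.19), 0.44 ± 0.41 for Mcm6 (adjusted p = 0.49), 1.09 ± 0.59 for Mcm4 (adjusted p = 0.21) and 0.51 ± 0.35 for Cdc45 (adjusted p = 0.34). They were -0.59 ± 0.26 for Mcm3 (adjusted p = 0.12), -1.60 ± 0.70 for Cenpe (adjusted p = 0.12) and -2.19 ± 0.78 for Cenpf (adjusted p = 0.053). The value of Mcm6 thus fell from 1.05 to 0.44 and that of Cdt1 from 0.95 to 0.60, both below the range that leaving out single libraries gave. Those of Cdc45, Mcm3, Mcm4, Cenpe and Cenpf stayed within that range. The standard errors were larger than over all libraries for all of these genes but Cenpf. This fit also held fewer libraries and lacked a class. Loss of a call through what the omitted libraries held and through their smaller number cannot be told apart.

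Other settings ended calls over the 4 classes as well. With libraries scaled to the same total Mcm3 was at -0.27 (adjusted p = 0.35), with voom Cenpe was at -1.73 (adjusted p = 0.052), and with quantile normalisation Cdc45 was at 0.52 (adjusted p = 0.089). Without a filter on low counts Mcm4 was at 1.11 (adjusted p = 0.064), Cenpf at -2.49 (adjusted p = 0.056) and Cdc45 at 0.63 (adjusted p = 0.065).

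Single libraries also ended calls over the 4 classes. Leaving out the lone type 2 spontaneous MDM library removes its class, so that fit compares the other classes only. Without type 1 spontaneous MDM 2, Mcm3 was at -0.43 (adjusted p = 0.08), Mcm4 at 1.09 (adjusted p = 0.057) and Cenpf at -2.05 (adjusted p = 0.08). Without type 2 transplanted MDM 1, Mcm4 was at 1.12 (adjusted p = 0.053), Cenpe at -1.46 (adjusted p = 0.05) and Cenpf at -2.29 (adjusted p = 0.064). Mcm4 was at 1.00 (adjusted p = 0.065) without the type 2 spontaneous MDM library, and Mcm3 at -0.49 (adjusted p = 0.053) without type 2 transplanted MDM 3. The calls of Cdt1 and Mcm6 held in all 21 fits without a single library, at 0.84 to 1.04 and 0.92 to 1.21. Cdk1, not called over all libraries, was called at -1.25 (adjusted p = 0.015) without type 1 spontaneous MDM 1. It was also called at -1.10 (adjusted p = 0.026) without type 1 spontaneous microglia 2, at -1.12 (adjusted p = 0.024) without type 2 transplanted microglia 2 and at -1.14 (adjusted p = 0.039) without type 2 transplanted MDM 3, and Top2a was called without the first of these (adjusted p = 0.042).

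In type 1 transplanted tumours, 4 MDM libraries were set against 3 microglia libraries, and 7 of the 40 genes were called higher in MDM, a share close to the 18.2% of all genes. None was called lower by limma-trend or voom or had an unadjusted p under 0.05 in that direction, against 15.9% of all genes called lower. All 7 were G1/S genes: Mcm6 (2.36 ± 0.46, adjusted p = 0.00052), Cdt1 (1.66 ± 0.34, adjusted p = 0.00087), Cdc45 (1.51 ± 0.40, adjusted p = 0.0062), Mcm7 (1.68 ± 0.45, adjusted p = 0.0069), Ccne1 (3.96 ± 1.27, adjusted p = 0.021), Mcm5 (1.38 ± 0.48, adjusted p = 0.034) and Mcm2. For Mcm2 the difference was 1.40 ± 0.52, adjusted p = 0.043. The median was 1.40 over the 16 G1/S genes, 0.77 over the 24 G2/M genes and 0.15 over all genes tested. In this class 12 of 16 G1/S genes and 9 of 24 G2/M genes had all 4 MDM libraries above all 3 microglia libraries, as did 25.1% of all genes tested. Of the 40 genes only Mcm3 and Cdk1 had them all below, against 20.6% of all genes tested.

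The T and NK cell marker sum was 210219 to 236757 in these MDM and 277 to 5579 in these microglia, and the B cell sum 17042 to 41345 against 1005 to 1977. Both lists' part in the helicase and cyclin levels was not tested. Ccne1 rested on its missing reads in type 1 transplanted microglia 2, without which its difference was 1.5 (adjusted p = 0.17). Without that library, or without type 1 transplanted MDM 2, 4 genes were called, and the share of all genes called in those fits is not given here. The calls of Mcm6, Cdt1, Cdc45 and Mcm7 held in all 21 fits without a single library, while that of Mcm5 held in 16 and that of Mcm2 in 13. Mcm2 and Mcm5 were lost without any of type 1 transplanted MDM 1, 2 and 3 and microglia 2 and 4. Mcm2 was also lost without microglia 1 of that class, type 2 spontaneous microglia 2 and type 2 transplanted microglia 1. Without these libraries the differences were 1.23 to 1.51 for Mcm2 (adjusted p of 0.051 to 0.13) and 1.14 to 1.42 for Mcm5 (adjusted p of 0.061 to 0.14). Both were also lost without a filter on low counts (adjusted p = 0.086 for Mcm2 and 0.071 for Mcm5), and Ccne1 was lost in a fit of only the compared groups (adjusted p = 0.086).

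The other classes gave 1 call. In type 2 transplanted tumours Mcm3 was lower in MDM (-1.34 ± 0.35, adjusted p = 0.013), 1 of 40 against 8.45% of all genes. Next was Pcna (0.81 ± 0.36, adjusted p = 0.13), which did not pass. The Mcm3 call was lost without MDM 1 (-1.41, adjusted p = 0.07), MDM 3 (-1.27, adjusted p = 0.063) or microglia 3 (-0.95, adjusted p = 0.053) of the class, and with libraries scaled to the same total.

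In type 1 spontaneous tumours 0 of 40 genes were called, against 13.4% of all genes, and voom also called 0. An unadjusted p under 0.05 was reached by 3 genes, Cenpe (-2.67 ± 1.06, adjusted p = 0.10), Cdk1 (-1.96 ± 0.78, adjusted p = 0.11) and Tyms (-1.16 ± 0.54, adjusted p = 0.17). The medians here were below 0, at -0.48 for the G1/S and -1.08 for the G2/M genes, with 12 of 16 and 17 of 24 genes lower in MDM. Leaving out microglia 2 or microglia 1 gave 3 and 1 calls, and the share of all genes called in those fits is not given here. Without MDM 1 the MDM group held 1 library, so its calls are not interpreted. In type 2 spontaneous tumours, with 1 MDM library assumed to vary like the other groups, limma-trend and voom both called 0 of 40, against 10.7% of all genes, and 1 gene had an unadjusted p under 0.05. The smallest p belonged to Cdc45 (1.32 ± 0.60, adjusted p = 0.18), Cdt1 (1.06 ± 0.52, adjusted p = 0.22) and Mcm6 (1.23 ± 0.69, adjusted p = 0.30).

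The comparisons share groups of libraries and are not independent of one another. Whether the difference between cell types itself differed between classes was tested directly for 2 pairs of classes. Between type 2 and type 1 transplanted tumours limma-trend and voom called 0 of the 40 genes, against 0.749% of all genes, with 5 genes at an unadjusted p under 0.05. The smallest p values were those of Mcm6 (-2.02 ± 0.71, adjusted p = 0.18), Mcm7 (-1.88 ± 0.70, adjusted p = 0.20) and Mcm3 (-1.02 ± 0.45, adjusted p = 0.28). Between transplanted and spontaneous type 1 tumours both tools again called 0, against 4.51% of all genes, with 6 genes at an unadjusted p under 0.05. Here Cdc45 (2.02 ± 0.62, adjusted p = 0.074), Mcm7 (2.14 ± 0.70, adjusted p = 0.093) and Mcm6 (2.11 ± 0.71, adjusted p = 0.10) came first. In a fit of only the compared groups 2 genes were called, and the share of all genes called in that fit is not given here.

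**Figure D5:**
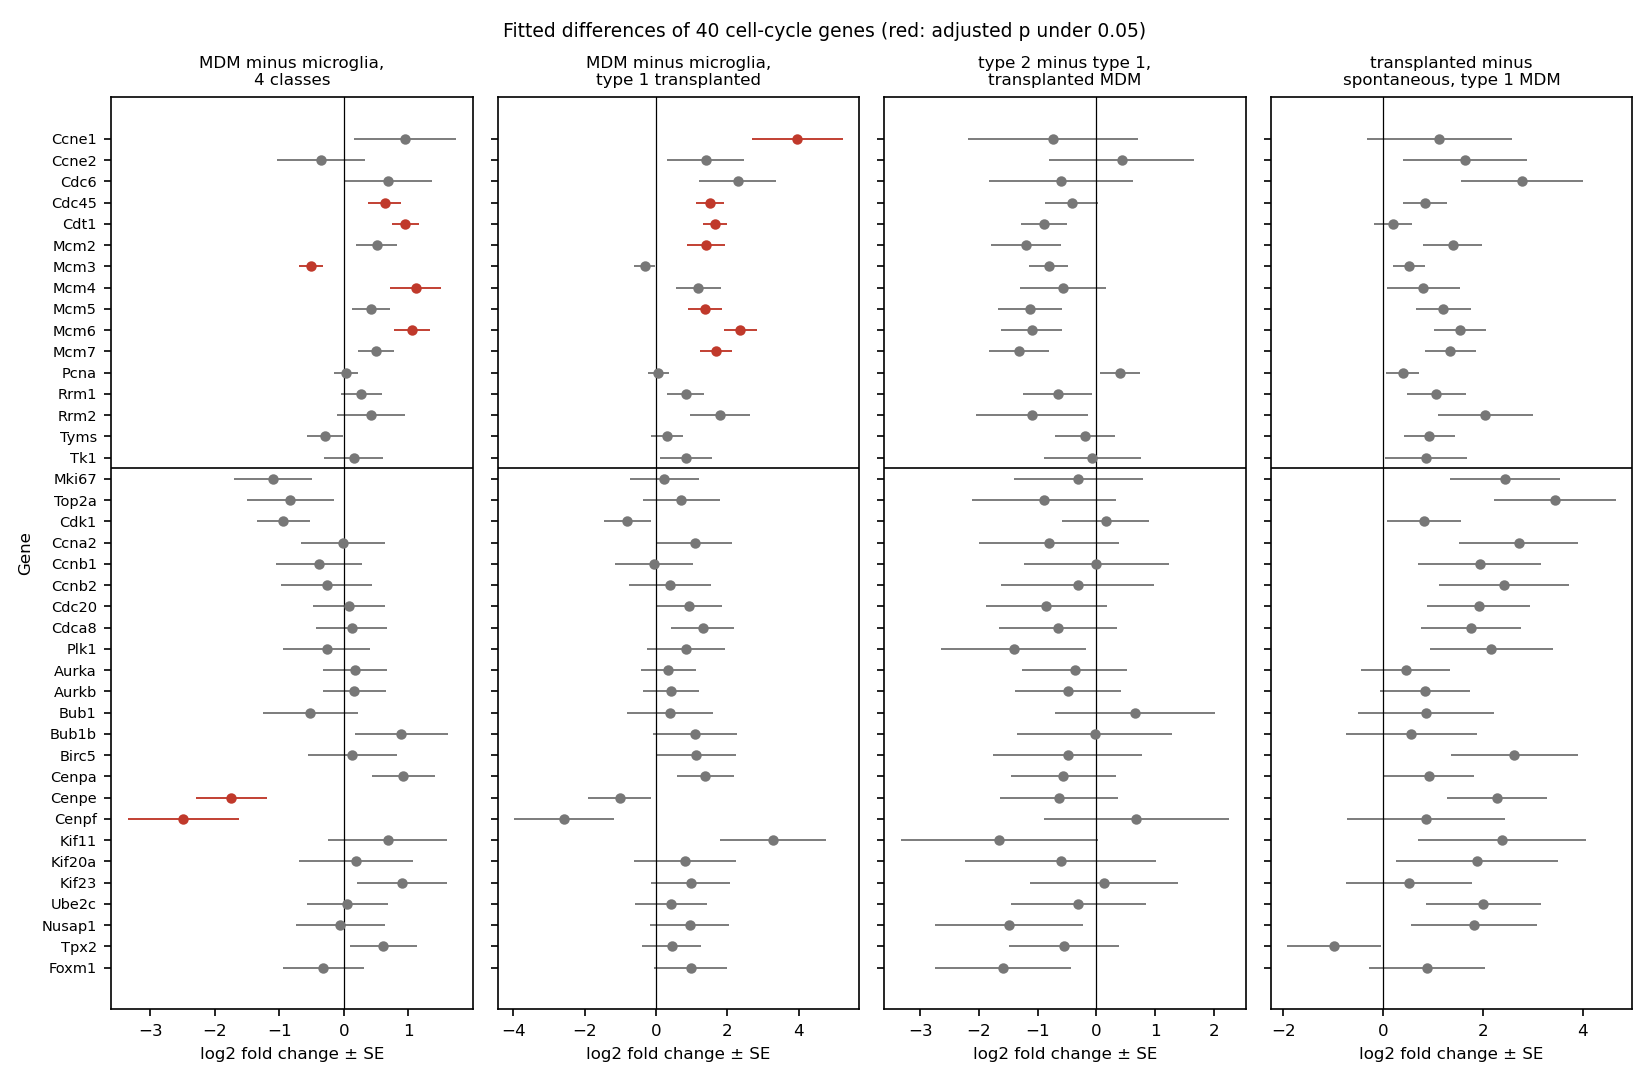
Fitted log2 fold change with its standard error (horizontal axis) for each of the 40 genes (vertical axis, G1/S genes above the line) in 4 comparisons, with genes of adjusted p under 0.05 in red. Red points appear for 7 genes in the cell type comparison over 4 classes and for 7 G1/S genes in type 1 transplanted tumours, and none in the comparisons of MDM by tumour type or by model.

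Within microglia, none of the cell-cycle genes passed the test for tumour type or model. For type 2 against type 1 tumours, with 6 libraries on each side, limma-trend and voom called 0 of 40, against 0.47% of all genes, and 0 genes had an unadjusted p under 0.05. The 3 smallest p values were those of Kif11 (2.06 ± 1.12, adjusted p = 0.63), Kif20a (1.82 ± 1.08, adjusted p = 0.67) and Ccne1 (1.42 ± 0.96, adjusted p = 0.71). Each of these had a library with few or no reads in type 1 tumours, at 90.3, 1.46 and 438 for Kif11 in type 1 transplanted and 294, 21.5 and 0 for Kif20a in type 1 spontaneous microglia. The medians were 0.22 for G1/S and 0.42 for G2/M genes, against -0.02 for all genes. The neural and glial marker sum was 1883 to 2607 in type 1 and 106 to 2406 in type 2 microglia. Cspg4 alone gave 1976 of the 2607 and 2001 of the 2406.

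For transplanted against spontaneous tumours, again with 6 libraries a side, 0 of 40 were called by either tool, against 1.84% of all genes, and 3 genes had an unadjusted p under 0.05. These were Mcm4 (1.30 ± 0.49, adjusted p = 0.16), Pcna (-0.56 ± 0.23, adjusted p = 0.19) and Cdt1 (-0.59 ± 0.26, adjusted p = 0.22). Mcm4 was at 983, 791 and 143 and 154, 420 and 1830 in the spontaneous groups and at 1154, 1147 and 933 and 1066, 1015 and 2262 in the transplanted ones, and 3 spontaneous libraries, at 143, 154 and 420, were below all others. The T and NK cell sum was 109 to 566 in the spontaneous and 277 to 5579 in the transplanted microglia, and its part was not tested. The test of whether tumour type and model act on each other called 0 of 40 with both tools, against 0.0116% of all genes. There 1 gene had an unadjusted p under 0.05, Cdc45 (1.58 ± 0.60, adjusted p = 0.64), followed by Cdc6 (2.98 ± 1.63, adjusted p = 0.85) and Mcm6 (1.26 ± 0.69, adjusted p = 0.85).

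In MDM of transplanted tumours, 2 type 2 libraries were compared with 4 type 1 libraries. Limma-trend and voom called 0 of the 40 genes, against 5.91% of all genes, and 4 G1/S genes had an unadjusted p under 0.05. Mcm7 came first (-1.32 ± 0.51, adjusted p = 0.13), then Mcm3 (-0.81 ± 0.33, adjusted p = 0.16) and Cdt1 (-0.89 ± 0.39, adjusted p = 0.19). Both type 2 libraries were below all 4 type 1 libraries for 10 of 16 G1/S genes and 4 of 24 G2/M genes, as they were for 16.6% of all genes tested. The T and NK cell sums of the type 2 libraries were 292279 and 34843, on either side of the type 1 range.

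Model was compared in MDM of type 1 tumours, with 4 transplanted and 2 spontaneous libraries. The fitted differences had medians of 1.10 (G1/S) and 1.85 (G2/M), with values above 0, on the side of the transplanted libraries, for 16 of 16 and 23 of 24 genes, against a median of 0.03 over all genes. None passed the threshold in limma-trend, against 13.7% of all genes, while voom called 1, and 10 genes had an unadjusted p under 0.05. Those nearest to the threshold were Mcm6 (1.55 ± 0.52, adjusted p = 0.054), Top2a (3.44 ± 1.22, adjusted p = 0.069) and Mcm7 (1.35 ± 0.51, adjusted p = 0.090). All transplanted libraries were above both spontaneous ones for 12 of 16 G1/S and 8 of 24 G2/M genes, as for 20.4% of all genes tested. Only Tpx2 had them all below, against 19.3% of all genes tested.

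The 2 spontaneous libraries were themselves far apart. Ccna2 was at 590 and 28.6, Ccnb1 at 694 and 20.8 and Cdc20 at 1169 and 107 in libraries 1 and 2, while the 4 transplanted libraries were at 943, 945, 908 and 712, 442, 464, 536 and 447 and 1458, 1270, 1849 and 942. For Ccnb1, spontaneous library 1 was above every transplanted library, and for Cdc20 it was among them. Without spontaneous library 1 the group held 1 library, so the number of calls in that fit is not interpreted. The T and NK cell marker sum was 11281 and 28520 in the spontaneous and 210219 to 236757 in the transplanted libraries, and its part in these differences was not tested.

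The wider cell-cycle machinery was followed in 4 further lists. Of 25 genes for D-type cyclins, their kinases and the RB and E2F families, 5 were higher and 3 lower in MDM over the 4 classes. Among all genes tested 23% were higher and 19.8% lower, so these counts were near or below the background. Ccnd3 (2.7 ± 0.21, adjusted p = 2.8e-08) and Ccnd2 (4.50 ± 0.49, adjusted p = 7.9e-07), which encode D-type cyclins, and E2f2 (1.79 ± 0.26, adjusted p = 1.7e-05) rose, and E2f3 fell (-1.79 ± 0.19, adjusted p = 6.6e-07). Ccnd2 was at 7002 and 49652 in type 1 spontaneous, 15373, 11745, 12086 and 10932 in type 1 transplanted, 5807 in type 2 spontaneous and 16554 and 6167 in type 2 transplanted MDM. Microglia had Ccnd2 at 588, 4150 and 1243 in type 1 spontaneous, 693, 470 and 119 in type 1 transplanted, 599, 1403 and 243 in type 2 spontaneous and 98.4, 466 and 123 in type 2 transplanted tumours. Every MDM library was above every microglia library for Ccnd2. The calls of Ccnd3 and E2f3 were also made in each of the 4 classes alone, at 2.21 to 3.02 and at -2.73 to -1.40. Without type 2 transplanted MDM 1, the call of E2f3 in that class was lost (-0.95, adjusted p = 0.24) and that of Ccnd3 was not (2.47, adjusted p = 0.025).

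Without the 5 libraries that held many T and NK cell transcripts, 3 of the 24 genes tested were higher and 3 lower over the other 3 classes, against 12.1% higher and 12.5% lower among all genes in that fit. Of the 8 genes called over all libraries, 6 were still called in the same direction. Ccnd3 was at 2.48 (adjusted p = 5.8e-05), Ccnd2 at 4.03 (adjusted p = 0.00087), E2f2 at 1.82 (adjusted p = 0.0014) and E2f3 at -1.69 (adjusted p = 0.00016). Rbl2 (0.90, adjusted p = 0.13) and E2f4 (0.42, adjusted p = 0.12) were no longer called.

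Of 17 inhibitors and brakes, 6 were higher and 3 lower in MDM over the 4 classes, against 23% and 19.8% of all genes. Without the 5 libraries 6 were higher and 2 lower, against 12.1% and 12.5% of all genes, and 8 of the 9 called genes were still called. Btg1 (1.72 ± 0.19, adjusted p = 8.6e-07) and Btg2 (1.71 ± 0.25, adjusted p = 2.6e-05), antiproliferative genes, Cdkn2d (2.43 ± 0.29, adjusted p = 2.2e-06), which encodes the CDK4 and CDK6 inhibitor p19, and Cdkn1b (1.44 ± 0.24, adjusted p = 8.1e-05), which encodes p27, had the smallest p. With those 5 left out they were at 1.68 (adjusted p = 0.00037), 1.66 (adjusted p = 0.0037), 2.29 (adjusted p = 0.0015) and 1.46 (adjusted p = 0.0068). Of this list 7 genes were higher and 2 lower in type 1 transplanted MDM, against 18.2% and 15.9% of all genes. Cdkn2a, which encodes the p16 and p19ARF proteins, was lower in type 1 transplanted MDM (-3.31 ± 0.78, adjusted p = 0.0028), while Tob1 was higher in both type 1 classes (3.08 ± 0.69 spontaneous, 2.41 ± 0.58 transplanted) and Gadd45b in type 2 transplanted MDM (3.72 ± 0.70, adjusted p = 0.0017). The last of these calls was lost without type 2 transplanted MDM 1 (3.09, adjusted p = 0.084). The genes called higher in MDM with and without the 5 libraries thus included cyclins that promote entry into the cycle and inhibitors that oppose it. Lymphocytes also express Ccnd2, Ccnd3, Btg1 and Cdkn1b, and the part of the T and NK cell transcripts in the values over all libraries was not tested beyond leaving out these 5. The MDM libraries that were kept still had T and NK cell sums of 11281 to 38274, against 109 to 5579 in microglia. Their dendritic cell sums were 10631 to 61437, against 171 to 2056. The part of these transcripts in the remaining calls was not tested.

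Of 40 other replication genes, 10 were higher and 1 lower in MDM over the 4 classes, against 23% and 19.8% of all genes, so the share higher was near the background. Without the 5 libraries limma-trend called 0 of the 40, with 1 gene at an unadjusted p under 0.05, against 24.6% of all genes called. The type 1 transplanted class had 18 higher and 0 lower, against 18.2% and 15.9% of all genes, and no fit without its 4 MDM libraries exists. Slbp (0.69 ± 0.14, adjusted p = 0.00054), which binds histone mRNA, Rpa2 (0.90 ± 0.19, adjusted p = 0.00085) and Rpa1 (0.73 ± 0.21, adjusted p = 0.010), which coat single-stranded DNA, and Dut (1.04 ± 0.27, adjusted p = 0.0050), which removes dUTP, had the smallest p over all libraries. With those 5 left out they were at 0.55 (adjusted p = 0.06), 0.37 (adjusted p = 0.35), 0.40 (adjusted p = 0.36) and 0.45 (adjusted p = 0.49). In type 1 transplanted tumours the differences were 1.95 ± 0.31 for Rpa2, 2.60 ± 0.44 for Dut, 2.86 ± 0.65 for the polymerase subunit Pole2 and 0.96 ± 0.22 for Slbp. In type 2 transplanted tumours Slbp (0.92 ± 0.27, adjusted p = 0.023) and Rpa2 (1.12 ± 0.37, adjusted p = 0.042) were called, and both were lost without MDM 1 of that class (0.77, adjusted p = 0.25, and 0.60, adjusted p = 0.53). In both spontaneous classes none was by limma-trend, with 3 and 1 genes at an unadjusted p under 0.05.

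Of 53 other mitotic genes, 3 were higher and 4 lower in MDM, below the 23% and 19.8% of all genes. Without the 5 libraries 1 was higher and 2 lower, all of them called over all libraries too, against 12.1% and 12.5% of all genes. The condensin genes Smc2 (-1.47 ± 0.31, adjusted p = 0.0007) and Ncaph (-1.15 ± 0.26, adjusted p = 0.0014) and the separase gene Espl1 (-1.17 ± 0.28, adjusted p = 0.0021) were lower, and Hmgb2, a chromatin protein, was higher (1.37 ± 0.29, adjusted p = 0.00082). Without the 5 libraries Smc2 was at -1.78 (adjusted p = 0.0075), Ncaph at -1.08 (adjusted p = 0.035) and Hmgb2 at 1.26 (adjusted p = 0.041), while Espl1 at -0.91 (adjusted p = 0.087) was no longer called. In type 1 transplanted tumours Espl1 (-1.96 ± 0.45) was lower, while Hmgb2 (2.05 ± 0.47), the condensin gene Smc4 (2.15 ± 0.50) and the phosphatase gene Cdc25b (3.39 ± 0.84) were higher. Smc2 was the gene called in each spontaneous class (-2.09 ± 0.59 in type 1 and -3.11 ± 0.74 in type 2), and Espl1 (-2.16 ± 0.53) and Ncaph (-1.78 ± 0.50) were called in type 2 transplanted tumours, all lower in MDM. Without type 2 transplanted MDM 1 the last 2 were at -2.18 (adjusted p = 0.088) and -1.08 (adjusted p = 0.36).

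The further lists held 25, 17, 40 and 53 genes. In type 1 MDM, 11 of these genes were higher and 2 lower in transplanted than in spontaneous tumours. That is a smaller share than the 13.7% of all genes that were called. Rpa2 (1.80 ± 0.35, adjusted p = 0.0021), Dut (2.32 ± 0.50, adjusted p = 0.0047) and Smc4 (3.10 ± 0.57, adjusted p = 0.0015) were higher, while Ccnd1, a D-type cyclin (-2.66 ± 0.46, adjusted p = 0.0009), and Cdkn1a, which encodes p21 (-3.47 ± 0.73, adjusted p = 0.0038), were lower. Cdkn1a was at 3702 and 37968 in the 2 spontaneous and at 1235, 981, 1048 and 1035 in the 4 transplanted libraries. Its highest value was in type 1 spontaneous MDM 2, the library with the lowest G2/M level, and the same library had the highest Ccnd1 value, 10144. Mycn was called higher too, at 8, 9.60, 11.6 and 12.3 in the transplanted and 0 in both spontaneous libraries, a level so low that its fitted value depends on the pseudocount. The T and NK cell sum was 11281 and 28520 in the spontaneous and 210219 to 236757 in the transplanted libraries, and the B cell sum 2085 and 623 against 17042 to 41345. Their part in these calls was not tested.

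The MDM level relative to microglia was also higher in transplanted than in spontaneous type 1 tumours for Rpa2 (2.06 ± 0.48, adjusted p = 0.021), Dut (2.80 ± 0.69, adjusted p = 0.026) and Smc4 (3.12 ± 0.78, adjusted p = 0.030). These 3 genes were a smaller share of the further lists than the 4.51% called among all genes, and the MDM marker sums were the same as above. In microglia Rbl2, an RB family member that acts in the DREAM complex, was higher in transplanted tumours (1.69 ± 0.34, adjusted p = 0.018), and in transplanted MDM Ccnd1 was higher in type 2 (1.63 ± 0.46, adjusted p = 0.043).

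The 40 genes differed in how closely they followed one another. Across the 21 libraries, which share their normalisation, the correlation of each gene with the mean of the others ran from 0.28 to 0.90 over the G1/S genes with a median of 0.72, and from 0.32 to 0.96 over the G2/M genes with a median of 0.84. Ccna2 (0.96), Cdc20 and Cdca8 (both 0.94) followed the group most closely, and Cdt1 (0.28), Cenpf (0.32) and Mcm3 (0.40) least. The genes outside these lists whose levels were most like the mean of the 40, by Pearson correlation over the 21 libraries, were Knstrn (0.91), Pclaf (0.90), Rad54l (0.89), Cep55 (0.87), Tcf19 and Polq (both 0.86), Ccnf, Depdc1b and Fbxo5 (each 0.85) and Lrr1 (0.84). These correlations describe the libraries and carry no test.

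The labels do not say whether the counting used the strand of the reads. Exons of 13 of the 40 genes overlap another gene in the annotation, by more than 10% of their exon bases in 4: Ccne2 with Ints8 (17.4%), Ccna2 with Exosc9 (12.5%), Kif20a with Cdc23 (29.3%) and Ube2c with Tnnc2 (22.8%), each on the opposite strand. Values of these 4 are uncertain to that extent, as are those of Tyms and Ccnb1, which have pseudogenes listed in the table.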

How the data were processed

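RNA of sorted cells was extracted with TRIzol and the miRNeasy kit and made into libraries with SMART-Seq v4, per the labels' protocols. Alignment used STAR 2.7.8a and the mm10 build, and the counts went through DESeq2 (version not given in the sources used here), per the submitters' processing notes. The deposited table holds log2-like variance-stabilised values made by the authors, with a floor of 4.22 for genes without reads. Inverting that transformation gave counts divided by 1 size factor per library (0.62 to 1.55), and 100.0% of the values were then whole reads within 1e-06.

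Genes with a normalised count of at least 10 in at least 3 libraries (17216) were fitted on log2(normalised count + 1) with limma-trend (limma 3.58.1, R 4.3.3) and 8 group means, with Benjamini-Hochberg adjustment and a threshold of 0.05. The lone type 2 spontaneous MDM library was assumed to vary like the other groups. Tables and plots used python 3.11.15, pandas 2.3.3, numpy 2.4.6 and matplotlib 3.10.9, and the fit was tested on simulated data. The 40 genes, the further lists and the markers were chosen with earlier results of these data known. Described in full were 12 set genes, every gene called (or the 6 with the smallest p, or the 3 where none was called), up to 4 called genes of each further list per comparison and the 10 most correlated genes outside them. Alternatives were a pseudocount of 8, a filter at 50 or none, quantile or equal-total scaling, the deposited values, voom, a replicate block, only the compared groups, and libraries left out singly or for their content of other cells' transcripts.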

Additional observations from a re-analysis of the deposited data

Results flagged for a closer look

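In type 1 transplanted MDM, the 1 group with at least 4 libraries, 1 library stood far from the other 3 for 6 of the 40 genes on the log2 scale, by Dixon's test, which singles out about 1 in 20 groups by chance. Library 4 was low for Ccna2 (9.48 against 9.83 to 9.89), Ccnb2 (9.98 against 10.16 to 10.18), Aurka (8.45 against 9.34 to 9.38) and Cenpf (0.00, no read, against 6.71 to 7.21). Library 3 was high for Cdca8 (9.93 against 9.51 to 9.54) and Bub1b (9.30 against 8.78 to 8.85). All 6 are G2/M genes.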

How the results depend on the processing

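Each of the 12 counts of called genes was recomputed under 11 kinds of alternative. Of 366 recomputed counts, 333 stayed equal to the first value or within 1.5 times of it. Most of the 12 first counts were 0, and a 0 that stayed at 0 is among the 333. That share therefore says little about how stable the calls were. Over the 4 classes, 7 genes were called, 4 without a filter, 0 without the libraries rich in other cells' transcripts and 4 to 8 with single libraries left out. In type 1 transplanted tumours 19 were called from the compared groups alone, and 4 to 8 with single libraries left out. The share of all genes called from the compared groups alone is not given here, so the 19 are not read as particular to these genes. The type 2 transplanted call went to 0 with equal totals, with the compared groups alone and without the rich library, and to 0 to 1 with single libraries left out. Single libraries gave 0 to 3 calls in type 1 spontaneous tumours and 0 to 1 for model in microglia (1 without library 3 of either type 2 microglia group). The compared groups alone gave 2 calls for tumour type in transplanted MDM. For model in type 1 MDM there was 1 call with a pseudocount of 8, quantile scaling, the deposited values or voom, 3 with equal totals, 6 with the compared groups alone and 0 to 7 with single libraries left out. For cell type by model in type 1 tumours, the compared groups alone gave 2 calls, and single libraries left out 0 to 2. Shares of all genes called are given only for the first fits and for those without the rich libraries. The cause of these shifts was not tested.

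Among genes not called between cell types, the direction turned for Ccna2 (0.01 with a pseudocount of 8, 0.23 with equal totals, 0.04 with deposited values, 0.06 with voom, -0.55 to 0.53 with single libraries left out). It also turned for Pcna (-0.04 with quantile scaling, -0.05 to 0.15 with single libraries left out), and with single libraries left out for Ccnb1 (-1.02 to 0.23) and Foxm1 (-0.72 to 0.04). Without the rich libraries Ccne1 was at -0.17, Rrm2 at -0.09 and Cdc20 at -0.02, and Cdc20 was at -0.02 with quantile scaling and -0.35 to 0.51 with single libraries left out. Equal totals moved the median difference of all genes between MDM and microglia by 0.29. No gene called in the first fit changed direction under these alternatives.

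The shared library numbers were tried as a replicate block (correlation 0.14). It gave 8 calls over the 4 classes, adding Cdk1 (-0.98, adjusted p = 0.036), 1 call for cell type by model in type 1 tumours, and -0.01 for Cdc20, and changed no other count. Of 7 pairs of libraries with the same number, 2 correlated above 0.1 in their deviations from the group means, and 7 of 7 correlated best with their own number, a hint from the data and not from the labels. Both pairs above 0.1 came from type 1 spontaneous tumours. Where a group has 2 MDM libraries, their deviations are mirror images of each other, so the pairs of that class are not independent. Leaving out the rich libraries could not be done for the comparisons that need type 1 transplanted MDM, nor leaving out the lone MDM library for type 2 spontaneous tumours. Groups of 1 to 4 libraries limit all of these tests, and changes in genes with few reads were the least precise.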
